A study of Mus musculus with 5 samples.

Results

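Association and callosal populations of layer 5 (L5) neurons in the mouse primary somatosensory area (S1) were compared. Association neurons project to the primary motor area (M1) of the same hemisphere, and callosal neurons project to S1 of the opposite hemisphere (cS1). The comparison rests on 2 of the 5 arrays of the series, 1 for each projection. The other arrays, of association neurons in L2/3 and L6b and of callosal neurons in L2/3, serve as context. All animals were ICR mice of wild-type genotype, collected at postnatal day (PD) 24. Green RetroBeads, a fluorescent retrograde tracer, had been injected 3 days earlier, into M1 for the association group and into cS1 for the callosal group. According to the methods, all of these mice had also been electroporated *in utero* with pCAGGS-tdTomato, a plasmid aimed at L2/3 neurons, whose red axon terminals guided the injections. Each array holds the RNA of about 1000 traced cells that were cut out of S1 sections by laser microdissection, amplified, and measured on an Affymetrix whole-transcript mouse gene array. The tracer marks any cell with an axon in the injected area, and the labels do not say whether cells projecting to both areas were left out or how many animals contributed to a pool.

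A probe set is a group of probes that measures 1 gene. Of 35556 probe sets, 21789 carried 1 gene symbol, which gave 19938 genes. Signals are given as log2 values above the median of the array, and a difference is the association L5 signal minus the callosal L5 signal. A gene was kept when its signal reached the array median in either L5 array, which held for 11751 genes. Of these, 10611 reached it in both arrays, 564 in association L5 alone, and 576 in callosal L5 alone. A difference of at least 1 on the log2 scale, that is 2-fold, is called here higher or lower. With 1 array per projection there is no replicate error, no test was made, and every size describes these 2 arrays.

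As background, L5 contains several classes of projection neurons. Intratelencephalic neurons send axons to other cortical areas and the striatum, and both association and callosal neurons belong to this class. Some of them send branches to areas on both sides of the brain. Subcerebral neurons project to the brainstem and spinal cord and depend on the transcription factors encoded by *Fezf2* and *Bcl11b*, whereas near-projecting neurons have only local targets. L5 intratelencephalic neurons receive excitation through AMPA and NMDA receptors and inhibition through GABA-A receptors, each of which is assembled from subunits of several genes.

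Both L5 arrays had the signals of excitatory neurons of the deep cortex. *Slc17a7*, the vesicular glutamate transporter of cortical excitatory neurons, had a signal of 4.01 in association L5 and 4.23 in callosal L5, and *Camk2a*, the gene of the kinase CaMKIIα, had 4.41 and 4.91. All 9 measured genes of glutamatergic neurons reached the median in both arrays, and 0 of them were 2-fold apart. *Fezf2* was brighter in L5 (1.39 and 2.04) than in association and callosal L2/3 (-0.20 and -0.34). The superficial gene *Lamp5* was dimmer in L5 (3.50 and 3.37) than in L2/3 (5.59 and 5.32), and so was *Calb1*, which encodes a calcium buffer, at 2.42 and 3.15 against 5.82 and 5.55. The layers followed their labels in these genes, which are part of longer lists of layer markers. Most of the other listed markers are not given here for both layers. *Rbp4*, another L5 gene, did so in association L5 (3.76) but not in callosal L5 (1.12), against 2.23 and 2.20 in L2/3.

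Signals of other cell types were present in both arrays. In GABAergic neurons, *Gad1* and *Gad2* make the enzymes that produce GABA, and their signals were 2.00 and 0.45 in association L5 and 1.18 and 1.0 in callosal L5. The mean over 13 measured GABAergic genes was 1.78 in association L5 and 1.86 in callosal L5. For 9 myelin genes the means were 2.08 and 1.56, for 8 astrocyte genes 1.81 and 2.09, for 8 microglia genes 0.56 and 0.61, and for 8 endothelial and mural genes 0.41 and 0.18. *Mag*, which encodes a myelin adhesion protein, had a signal of 3.96 in association L5 and 0.64 in callosal L5. *Mobp*, another myelin gene, had 3.83 and 2.32, while *Mbp* (2.03 and 2.25), *Cnp* (1.80 and 2.47), and *Mal* (2.27 and 2.21) were within 2-fold. Of the myelin genes, 2 of 9 were higher and 0 lower, beside 3.74% and 5.32% of all kept genes. *Olig2*, a transcription factor gene of the oligodendrocyte lineage, was higher by 1.20, with a signal below the median in callosal L5 (-0.29). All 6 astrocyte genes and all 8 microglia genes past the filter were within 2-fold. In such pools, fewer cells of a type and less RNA per cell cannot be told apart, and the part of other cell types in the differences below was not tested.

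Of 5 sex-linked genes past the filter, 2 were higher and 1 lower in association L5, and *Usp9x* (-0.89) and *Ddx3x* (-0.54), both X-linked, were within 2-fold. A second probe set of *Ddx3x* gave -3.02. *Xist* and *Eif2s3y* separated the arrays by projection. *Xist*, the noncoding RNA of the inactive X chromosome in females, had a signal of 1.47 in association L5 and -1.48 in callosal L5. *Eif2s3y*, on the Y chromosome, had -2.47 and 2.45. The association arrays of L2/3 and L6b had *Xist* at 2.55 and 2.31 and *Eif2s3y* at -2.61 and -2.46, whereas callosal L2/3 had -0.88 and 2.90. The X-linked *Eif2s3x*, a near-identical copy of *Eif2s3y*, was higher in association L5 by 1.21, and cross-hybridization between the 2 copies was not tested. The labels and the paper's text do not give the sex of the animals. In these arrays sex and projection cannot be told apart, for these genes or for any other difference between the projections.

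In L5, 439 genes (3.74% of 11751) were higher in association neurons and 625 (5.32%) were lower. At a 4-fold size the counts were 107 (0.911%) and 128 (1.09%). The lower signal was below the array median for 113 of the higher and 126 of the lower genes. Brighter genes were more often apart. In the 25% of genes with the lowest mean signal of the L5 arrays, 2.31% were higher and 1.97% lower, and in the brightest 25% they were 6.16% and 9.36%. Identical deposited values were found in both L5 arrays for 21.7% of the kept genes, from 28.5% in the dimmest 25% to 10.1% in the brightest 25%. Since the medians of the 2 arrays differed by a little, such genes carry a difference of -0.03, which is also the median of all kept genes. The edges of the rule were crowded, with 66 higher genes within 0.1 inside the limit and 79 within 0.1 outside it, and 100 and 120 at the lower limit. The same rule set apart 9.05% of genes between these 2 arrays. It set apart 9.26% of genes between callosal L5 and callosal L2/3, and 11.5% between association L5 and association L2/3.

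**Figure D1:**
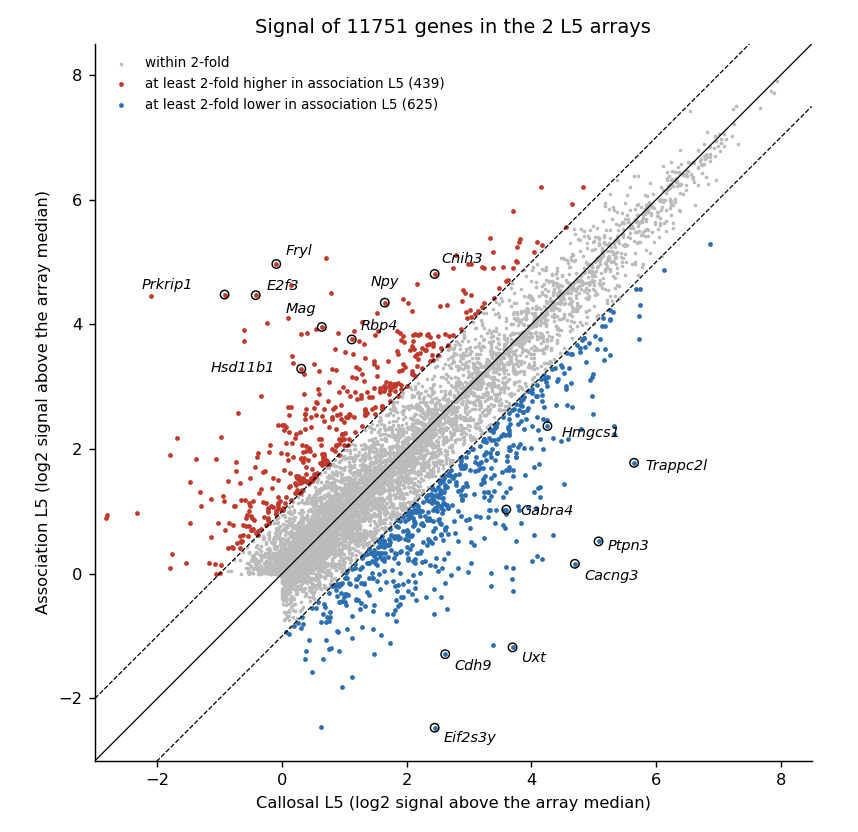
Log2 signal above the array median of 11751 genes in callosal L5 (horizontal axis) and association L5 (vertical axis), 1 array each. Red points are the 439 genes at least 2-fold higher and blue points the 625 genes at least 2-fold lower in association L5, dashed lines mark 2-fold, and circles mark named genes such as *Cnih3* (4.81 against 2.45) and *Cacng3* (0.16 against 4.70).

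Genes that mark classes of L5 neurons were mostly alike in signal, with a pair of exceptions among intratelencephalic genes. *Rbp4*, a retinol carrier whose promoter is widely used to mark L5, had a signal of 3.76 in association L5 and 1.12 in callosal L5. It stood between them at 2.23 and 2.20 in association and callosal L2/3, and below both at 0.53 in L6b. *Hsd11b1*, which encodes an enzyme that regenerates active glucocorticoid, had a signal of 3.29 in association L5. Its signal in the other arrays was between -1.15 and 0.34, so it was bright in association L5 alone. These 2 of 11 intratelencephalic genes were higher (differences of 2.64 and 2.98) and 0 were lower. Among all kept genes 3.74% were higher and 5.32% lower, and so short a list gives only a coarse share. *Etv1*, a transcription factor gene of these neurons, had a difference of -0.54 (1.65 and 2.19).

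Among 14 subcerebral genes past the filter, 0 were higher and 1 was lower (7.14%), near the 3.74% and 5.32% of all kept genes. The lower gene was *Opn3*, which encodes an opsin, with signals of 1.09 and 2.18. *Fezf2* had a difference of -0.65, *Bcl11b* of -0.03, and *Pcp4*, a calmodulin regulator, of -0.15 at signals of 5.99 and 6.14. *S100a10*, which encodes a partner of annexin A2, was the subcerebral gene most above callosal L5, at 0.93. All 4 near-projecting genes past the filter were within 2-fold. The median difference was -0.03 over the subcerebral genes and 0.04 over the intratelencephalic genes, beside -0.03 over all kept genes.

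Genes known from callosal neurons were mostly within 2-fold. Of 12 past the filter, 1 was higher in association L5 and 0 were lower. Among all kept genes 3.74% were higher and 5.32% lower, and in so short a list such counts are near these shares. *Gfra2*, which encodes the receptor for neurturin, had a signal of 3.41 in association L5, 1.70 in callosal L5, 0.68 and 1.45 in association and callosal L2/3, and 1.64 in L6b. *Lhx2* (-0.26), *Lmo4* (0.23), and *Cited2* (0.07), all genes of transcriptional regulators, were within 2-fold. All 14 genes of L2/3 and all 11 of L6b and subplate neurons past the filter were within 2-fold as well. *Kcnab1*, which encodes a β subunit of Kv1 potassium channels, had a difference of 0.22.

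Over the lists of layer and projection genes together, 4 of 79 genes were higher (5.06%) and 2 were lower (2.53%), beside 3.74% and 5.32% of all kept genes. The second lower gene was *Cdh9*, which encodes a type II cadherin and is listed with L4. It had a signal of 2.62 in callosal L5 and of -1.29 to -0.73 in the other 4 arrays. *Nfia*, a nuclear factor gene listed with L6a, was higher by 1.21 (1.43 and 0.22), and by 0.59 when its probe sets were averaged. Among 19 cortical transcription factor genes, *Etv5* was higher by 1.24, and its second probe set gave -0.15.

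**Figure D2:**
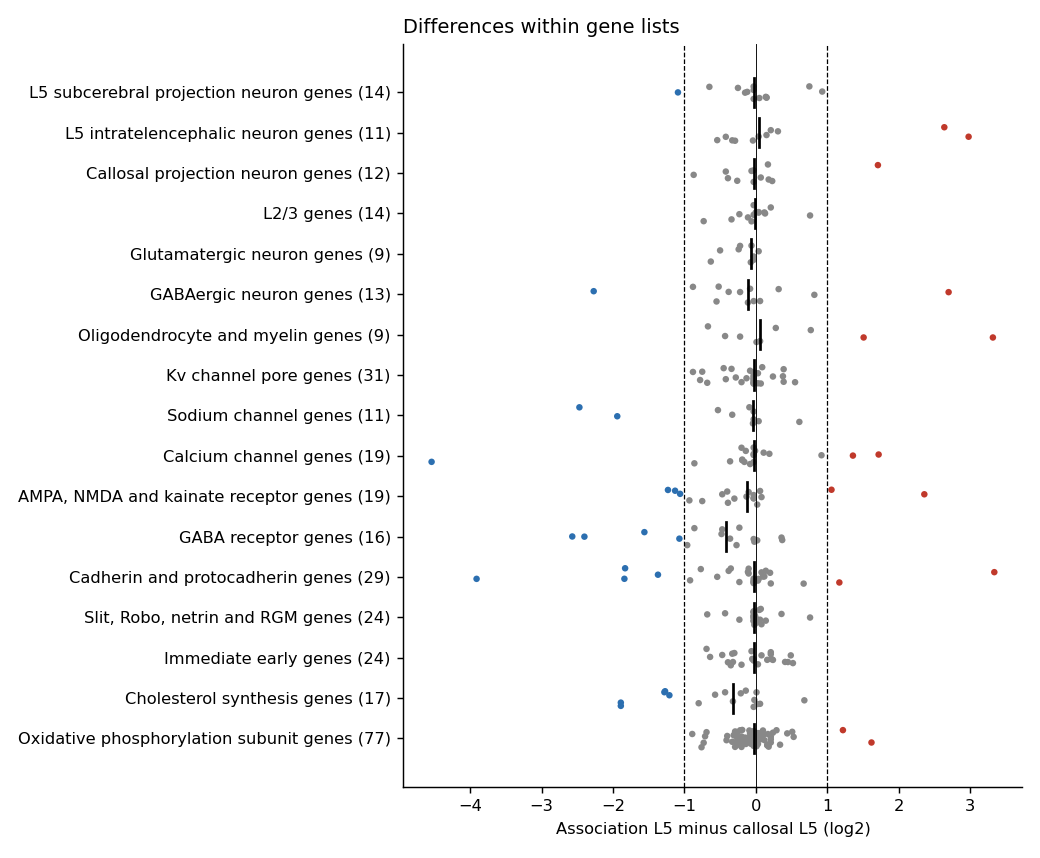
Association L5 minus callosal L5 (log2, horizontal axis) for the members of 17 gene lists, with the number of members past the filter after each list name. Each point is a gene, red at least 2-fold higher and blue at least 2-fold lower, black bars are list medians, and dashed lines mark 2-fold. The medians of the GABA receptor (-0.42) and cholesterol synthesis (-0.32) lists lie to the left of the others.

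Genes of AMPA receptor partners differed in both directions. The TARP proteins and the cornichons of *Cnih2* and *Cnih3* bind AMPA receptors, carry them to the surface, and slow their closing. *Cnih3*, a cornichon gene, had a signal of 4.81 in association L5 and 2.45 in callosal L5, and of 0.60 to 1.62 in the other arrays. *Cnih2*, its closest relative, went the other way, with 0.48 in association L5 and 1.71 in callosal L5. *Cacng3*, which encodes the TARP γ-3, had the largest difference of any ion channel or receptor gene on the lists. Its signal was 0.16 in association L5, 4.70 in callosal L5, 4.64 and 4.71 in association and callosal L2/3, and -0.03 in L6b. Callosal L5 thus resembled the L2/3 arrays, and association L5 the L6b array.

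*Cacng2*, which encodes TARP γ-2 or stargazin, had a signal of 3.83 in association L5 and 2.11 in callosal L5. Its second probe set gave a smaller difference, 0.52 against 1.72. *Cacng7*, which encodes TARP γ-7, had 3.53 and 2.17. The pore subunits varied less, with *Gria1* at 2.58 and 3.64, just past the rule, and *Gria2* (-0.30), *Gria3* (-0.40), and *Gria4* (0.02) within it. NMDA receptor genes were within 2-fold, *Grin2a* at -0.75 and *Grin2b* at -0.03. Among the ionotropic glutamate receptor genes, their partners, and cornichon genes, without the TARPs, 2 of 19 were higher (10.5%) and 3 lower (15.8%). All kept genes had 3.74% and 5.32%, and the brightest 25%, which held 10 of the 19, had 6.16% and 9.36%. The genes apart and not yet named were *Neto2*, an auxiliary subunit gene of kainate receptors, at 1.06, and the cornichon gene *Cnih4* at -1.13. The metabotropic receptor gene *Grm5* was higher by 1.32 and the scaffold gene *Dlg2*, which encodes PSD-93, lower by 1.06.

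GABA receptor genes were lower in association L5 or within 2-fold. Of 16 past the filter, 4 were lower (25%) and 0 higher, with a median of -0.42, beside 5.32% lower among all kept genes and 9.36% in the brightest 25%, which held 8 of the 16. *Gabra4*, an α subunit gene of GABA-A receptors outside synapses, had a signal of 1.03 in association L5, 3.60 in callosal L5, 4.06 and 3.87 in association and callosal L2/3, and 1.31 in L6b. *Gabrb1*, a β subunit gene, followed with -0.58 in association L5, 1.82 in callosal L5, 2.32 and 0.62 in L2/3, and -0.59 in L6b. It passed the filter through callosal L5 alone. *Gabra4* and *Gabrb1* lie next to each other in the genome. The neighbours were both dim in association L5 and L6b and bright in callosal L5 and association L2/3.

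*Gabrg3*, a γ subunit gene, had 2.33 in association L5 and 3.89 in callosal L5, the highest of the 5 arrays. *Gabra3* had 1.88 and 2.95. *Gabrb2*, another β subunit gene, was at 4.35 and 5.21, a difference of -0.86, and *Gabra5* at -0.96. The genes of the GABA-B receptor were within 2-fold, at -0.03 for *Gabbr1* and -0.48 for *Gabbr2*. *Gphn*, which encodes the scaffold gephyrin, was at -0.47.

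Genes of voltage-gated channels were largely alike. Over all ion channel lists, which include the TARP genes, 2 of 114 genes were higher (1.75%) and 7 lower (6.14%). Among all kept genes 3.74% were higher and 5.32% lower. All 31 pore genes of Kv channels past the filter were within 2-fold, from -0.88 for *Kcna1* to 0.55 for *Kcna6*. Of 10 auxiliary Kv genes, *Kcnip4* was lower, with a signal of 0.56 in association L5, 1.97 in callosal L5, and 2.34 to 3.08 elsewhere. Among other potassium channels, *Kcnt2*, a sodium-activated channel gene, was lower by 1.64, *Kcnj3*, a G protein-gated channel gene, by 1.19, and *Kcnk9*, a leak channel gene, by 1.05.

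Of 11 sodium channel genes 2 were lower, and both encode β subunits. *Scn3b* had a signal of 0.10 in association L5, 2.57 in callosal L5, 3.46 and 1.18 in association and callosal L2/3, and 1.83 in L6b. *Scn2b* had 1.66 and 3.60, and callosal L5 was its brightest array, the others lying between 1.12 and 1.86. The pore genes *Scn1a* (-0.02), *Scn2a* (-0.33), and *Scn8a* (-0.53) were within 2-fold. The 13 other bright probe sets of *Scn2a* ranged from -2.23 to 1.19, with 3 at least 2-fold lower and 1 at least 2-fold higher. Pore genes of calcium channels were within 2-fold too, the widest being *Cacna1e* at -0.86. *Hcn2*, a gene of the hyperpolarization-activated current, reached 0.99.

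**Figure D3:**
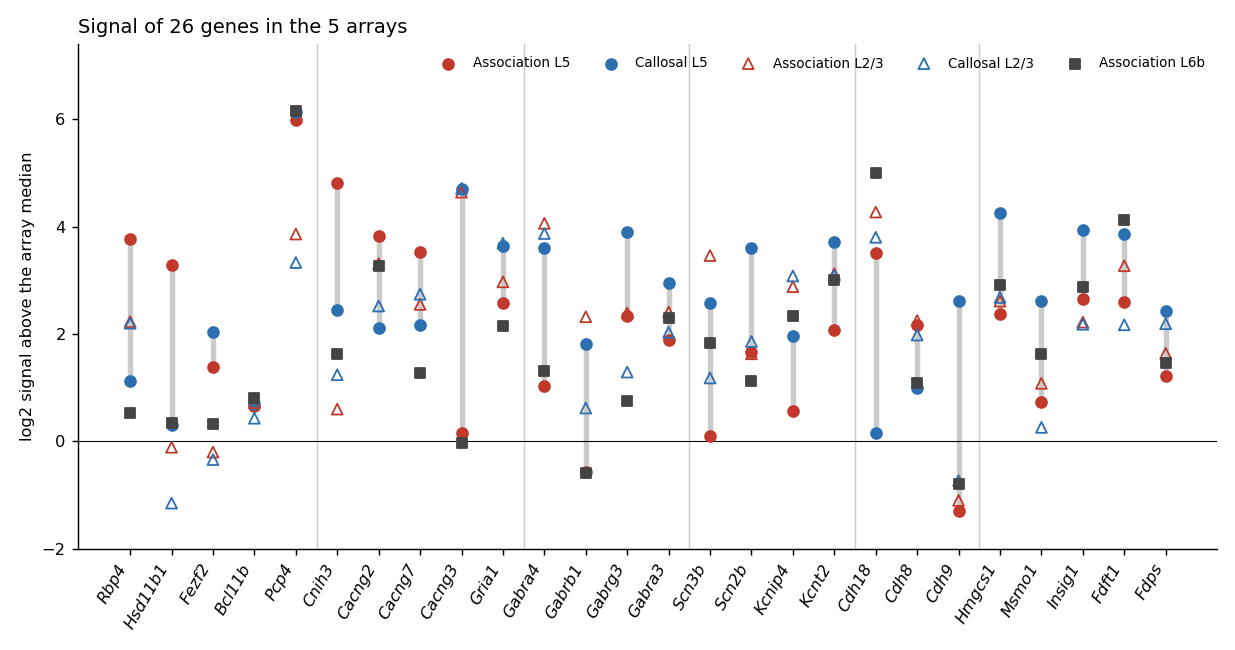
Log2 signal above the array median (vertical axis) of 26 genes in the 5 arrays, with grey bars joining the L5 arrays. From the left the blocks hold L5 class genes, AMPA receptor genes, GABA-A receptor genes, channel genes, cadherins, and cholesterol synthesis genes. *Cacng3* is at 0.16 in association L5 and -0.03 in L6b but at 4.64 to 4.71 in the other 3 arrays, and *Hsd11b1* is bright in association L5 alone.

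Adhesion genes included some of the widest differences. *Cdh18*, a type II cadherin gene, had a signal of 3.50 in association L5, 0.16 in callosal L5, and 3.80 to 4.99 in the other arrays, so that callosal L5 stood apart as the dim array. Its second probe set was higher by 1.02. *Cdh8*, a further type II cadherin gene, had 2.16 and 0.99. Together with *Cdh9*, these 3 relatives differed in opposite directions. Of 29 cadherin and protocadherin genes, 2 were higher (6.9%) and 4 lower (13.8%), beside 3.74% and 5.32% of all kept genes. The lower ones other than *Cdh9* were *Pcdhb11* (-1.84), *Pcdhb17* (-1.83), and *Pcdh19* (-1.37, chosen after its value was seen). *Cdh9*, *Pcdhb11*, and *Pcdhb17* passed the filter through callosal L5 alone. The lower share thus rests in part on genes admitted by the array in which they were bright. The *Pcdhb* genes are close copies of each other, and probes may not separate them.

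*Lsamp*, which encodes an adhesion protein of neuronal membranes, had 1.44 in association L5 and 3.19 in callosal L5. *Mdga2*, a gene that limits the pairing of neuroligin with neurexin, was lower by 2.95, but its second probe set gave 0.04. *Lrrtm2*, whose product binds neurexins, was lower by 1.30, and *Slitrk3*, which encodes an organizer of inhibitory synapses, was higher by 1.60. Of 41 neurexin, neuroligin, and related adhesion genes, 2 were higher and 2 lower (4.88% each). Of 39 contactin and immunoglobulin adhesion genes, 1 was higher (2.56%) and 2 lower (5.13%). Both lists were near the shares of all kept genes. Of 66 axon guidance genes past the filter, 0 were higher and 2 were lower (3.03%), beside 3.74% and 5.32% of all kept genes. These were *Sema4d*, at 0.84 and 2.76 but -0.02 in a second probe set, and *Plxdc2*, at 0.52 and 2.36. All 16 Eph and ephrin genes and all 24 Slit, Robo, netrin, and RGM genes were within 2-fold, *Epha4* at -0.67 and *Robo1* at -0.03.

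Peptides and modulatory receptors gave single genes rather than groups. *Npy*, which encodes neuropeptide Y of interneurons, had 4.35 in association L5, 1.65 in callosal L5, 4.07 and 4.01 in L2/3, and 2.40 in L6b, so callosal L5 was the lowest array. *Vip*, the peptide gene of another interneuron class, had -0.13 in association L5 and 2.14 in callosal L5. *Sst*, of yet another class, had 3.78 and 4.66, within 2-fold. These 3 peptide genes did not share a direction, and of 13 GABAergic genes past the filter 1 was higher and 1 lower. *Tac1*, which encodes substance P, had 1.02 and 3.32, with at most 0.37 in the other arrays. *Chrm2*, the gene of an acetylcholine receptor that couples to inhibitory G proteins, had -0.38 and 1.91. *Oprl1*, the nociceptin receptor gene, had 2.27 in association L5 and 0.09 to 0.29 in the other 4 arrays. The calcium sensor gene *Necab1* was at 2.75 and 0.54 and the calcium-binding gene *Rcn2*, of the endoplasmic reticulum (ER), at 2.57 and 0.37. All 24 immediate early genes past the filter were within 2-fold, *Fos* at 0.49 and *Arc* at 0.41.

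Genes of cholesterol synthesis were lower in association L5 or within 2-fold. Sterol-regulated transcription factors switch these genes on together when membrane sterol runs low. Of 17 past the filter, 5 were lower (29.4%) and 0 higher, beside 5.32% and 3.74% of all kept genes. The median was -0.32, and 3 of the 17 were in the brightest 25% of genes. *Hmgcs1*, which encodes the synthase ahead of the rate-limiting step, had a signal of 2.37 in association L5, 4.26 in callosal L5, 2.61 and 2.68 in L2/3, and 2.91 in L6b. *Msmo1*, a sterol demethylation gene, had 0.73, 2.62, 1.08, 0.26, and 1.62 in the same order. *Insig1*, which encodes the ER protein that holds back the sterol-regulated factors, had 2.66, 3.94, 2.22, 2.18, and 2.87. For these 3 genes callosal L5 was the bright array, and association L5 lay within the range of the other 3 arrays or below it.

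*Fdft1*, the squalene synthase gene, had 2.60 and 3.87, and *Fdps*, which makes the farnesyl precursor, had 1.22 and 2.43. *Fdft1* was brightest in L6b (4.12), and *Fdps* in callosal L2/3 was close to callosal L5 (2.19). *Idi1*, just outside the rule, was at -0.80. *Sqle* (0.06), *Mvd* (0.01), and the regulator gene *Srebf2* (-0.02) were near the median of all kept genes, and *Nsdhl* was at 0.68.

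The start regions of the lower genes are printed because these genes share a known control. RefSeq windows of GRCm38.p6 were at hand for 3 of the 5, and the 250 bases before the start of transcription are given 5′ to 3′ on the strand of the gene. Capitals mark matches on either strand to TCACNCCAC, a form of the sterol regulatory element, to CCAAT, the box bound by NF-Y, and to CACGTG, an E-box. *Hmgcs1* is at chr13:119690101-119690350 on the plus strand, *Msmo1* at chr8:64733579-64733828 on the minus strand, and *Insig1* at chr5:28071162-28071411 on the plus strand.
*Hmgcs1*: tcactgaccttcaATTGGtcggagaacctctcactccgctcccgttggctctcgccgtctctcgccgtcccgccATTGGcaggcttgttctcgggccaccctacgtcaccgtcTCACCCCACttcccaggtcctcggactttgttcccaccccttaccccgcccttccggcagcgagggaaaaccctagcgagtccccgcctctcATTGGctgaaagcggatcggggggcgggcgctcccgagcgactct
*Msmo1*: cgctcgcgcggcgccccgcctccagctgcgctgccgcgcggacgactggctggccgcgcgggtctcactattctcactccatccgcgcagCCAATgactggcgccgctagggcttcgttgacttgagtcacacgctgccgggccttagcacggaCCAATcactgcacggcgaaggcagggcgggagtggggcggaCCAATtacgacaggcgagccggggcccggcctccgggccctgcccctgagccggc
*Insig1*: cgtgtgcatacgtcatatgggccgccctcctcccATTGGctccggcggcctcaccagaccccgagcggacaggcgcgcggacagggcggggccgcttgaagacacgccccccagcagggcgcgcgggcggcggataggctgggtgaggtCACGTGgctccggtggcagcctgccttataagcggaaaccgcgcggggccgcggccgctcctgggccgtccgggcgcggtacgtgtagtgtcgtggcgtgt
The *Hmgcs1* window held 1 match to the sterol element and 3 to the CCAAT box. *Msmo1* held 3 CCAAT boxes, and *Insig1* held 1 CCAAT box and 1 E-box. Of 32851 start regions of this length, 1.05% held the sterol element, 33.8% a CCAAT box, and 6.02% an E-box. A match is a run of letters and not a measured binding site.

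The genes of the largest differences belonged to varied functions. On the association side they were led by *Prkrip1*, a spliceosome gene, at 4.48 in association L5 and -0.92 in callosal L5, and at 3.59 to 4.59 in the other arrays, so the callosal L5 array alone was dim. *Fryl*, a relative of a gene for dendrite patterning, had 4.97 and -0.09, and a second probe set gave -0.06. *E2f3*, which encodes an E2F factor, had 4.47 and -0.42, and its second probe set was higher by 1.41. *Ccdc74a* (4.49), *Rbis* (4.36), *Rnf25* (4.35), *Dennd5b* (4.01), *Zfp773* (3.87), *Vta1* (3.73), and *Cfap300* (3.70) followed, *Dennd5b* with -0.56 in another probe set. Where both L5 signals reached the median, *Cnn3*, an actin-binding calponin gene (3.38 and 0.17), *Abcd2*, a peroxisomal transporter gene (3.37 and 0.51), and *Nkain4* (3.61 and 0.85) were also among the widest.

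On the callosal side, after *Eif2s3y*, the widest were *Uxt*, *Ptpn3*, and *Cacng3*. *Uxt*, which encodes a prefoldin-like protein, had -1.18 in association L5 and 3.70 in callosal L5, and its second probe set gave -4.77. *Ptpn3*, a tyrosine phosphatase gene, had 0.52 and 5.08, but the median of its 8 other bright probe sets was 0.09. *Tlcd4* (-3.99), *Snrpa1* (-3.93), *Trappc2l* (-3.87), *Cyb5d1* (-3.81), *Mospd1* (-3.81), *Mob2* (-3.78), and *Ddah1* (-3.72) followed. *Cyb5d1* had -4.39 in its second probe set. *Csmd3*, which encodes a large complement-control protein of synapses, had 0.09 and 3.71, and its 6 other bright probe sets ranged from -4.20 to 0.28. *Cers2*, the synthase gene of very long ceramides, had 0.01 and 3.36, with at most 0.72 in the other arrays.

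More than 1 probe set was available for 844 kept genes, of which 127 were higher or lower. A second probe set reached the median for 116 of these. In 48 of the 116 (41.4%) at least 1 other probe set differed 2-fold in the same direction, in 58 no other probe set was 2-fold apart, and in 15 at least 1 was 2-fold apart the opposite way. The probe sets of a gene share a library, and in some genes they gave the same difference. Which exons or gene copies they cover was not examined, so their agreement is not independent support. A difference in transcript form was not tested.

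The other 3 arrays show which L5 array stood apart. Of the 439 higher genes, association L5 was at least 2-fold above all other arrays in 166 (37.8%), among them *Hsd11b1*, *Cnih3*, and *Oprl1*. Callosal L5 was at least 2-fold below all others in 44, among them *Prkrip1* and *Cdh18*. Of the 625 lower genes, callosal L5 stood above all others in 165 (26.4%), among them *Cdh9*, *Scn2b*, *Tac1*, and *Hmgcs1*, and association L5 below all others in 104 (16.6%), among them *Kcnip4*. In 230 higher and 360 lower genes neither array stood apart, as for *Cacng3*, *Gabra4*, and *Gabrb1*. Association L5 and callosal L5 were both apart, on either side of the other arrays, in 1 higher and 4 lower genes.

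The same contrast in L2/3 uses no array of the L5 pair. Over the same 11751 genes, 4.64% were higher and 3.11% lower in association neurons of L2/3. Of the 439 genes higher in L5, 49 (11.2%) were higher and 31 (7.06%) lower in L2/3, and 359 were within 2-fold. Of the 625 genes lower in L5, 51 (8.16%) were lower and 74 (11.8%) higher in L2/3, and 500 were within 2-fold. All 4 shares lie above the background of their direction, and the part of brightness, which moved with the share apart in L5, was not tested. The median L2/3 difference was 0.03 in the higher, the lower, and the remaining genes.

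Apart from *Xist* and *Eif2s3y*, the genes with the widest shared difference were from varied families. *Atxn1*, the ataxin gene of spinocerebellar ataxia, had 6.21 in association L5, 4.15 in callosal L5, 6.19 in association L2/3, and 3.74 in callosal L2/3. Its second probe set had a difference of 0.01 in L5. *Rrm2b*, a ribonucleotide reductase gene, was higher by 2.19 in L5 and 2.15 in L2/3, *Acot10* by 2.13 and 2.10, *Tmem267* by 2.04 and 1.99, *Cthrc1* by 1.95 and 2.67, and *Ssbp2* by 1.76 and 2.30. In the opposite direction, *Fundc1*, a mitophagy receptor gene, had -2.73 and -2.40. *Prrg3* had -2.87 and -2.24, *Arfgef2* -2.73 and -2.25 (its 4 other bright probe sets ranged from -2.15 to 0.30 in L5), *Rpp38* -1.81 and -3.57, and *Vamp8*, a gene of vesicle fusion, -2.37 and -3.17. Of the genes described above, *Cacng3* (-0.07), *Gabra4* (0.19), *Hmgcs1* (-0.07), and *Rbp4* (0.03) were near 0 in L2/3, whereas *Gabrb1* (1.70), *Gabrg3* (1.10), and *Cnih2* (1.15) were higher there in association neurons.

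**Figure D4:**
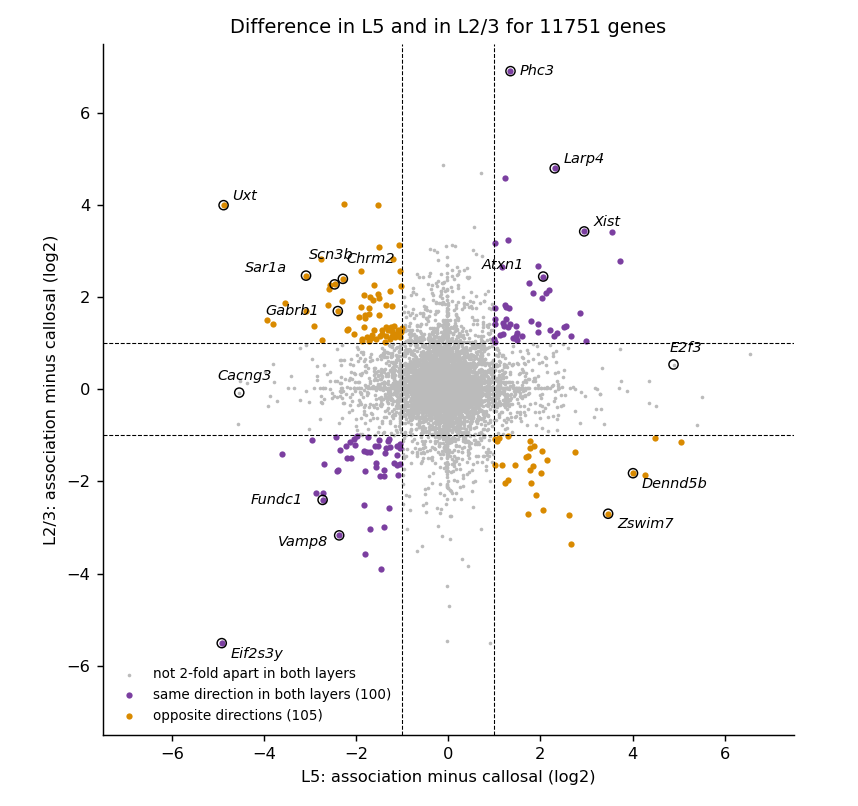
Association minus callosal difference (log2) of 11751 genes in L5 (horizontal axis) and L2/3 (vertical axis), from 4 arrays of which none is shared. Purple points are the 100 genes at least 2-fold apart in the same direction in both layers, orange points the 105 in opposite directions, grey points all others, and circles mark named genes such as *Uxt* (-4.88 and 4.0) and *Larp4* (2.31 and 4.80). The 2 other bright probe sets of *Larp4* gave -1.15 and 0.43 in L5.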

How the data were processed

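The deposited table holds log2 signals per probe set, made by the authors from 5 arrays, 1 per group, of about 1000 laser-dissected cells each. The submitters' processing notes name Affymetrix Expression Console, while how the probes were summarized is not stated by the labels or the paper. The authors' methods name a log transformation, global normalization, and centering, but the deposited values, from 1.11 to 14.2, are not centered by gene. How far amplification from so few cells moves single genes cannot be read from 1 array per group.

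Groups came from the sample titles. Each array's median over all 35556 probe sets was subtracted, probe sets with 1 symbol in the platform annotation were kept (1621 with several were not used), and the probe set with the highest mean over the 5 arrays stood for its gene. Genes at or above the median in either L5 array were compared, and at least 2-fold apart is a rule of size. The number of arrays limits the precision of every value. Python 3.11.15, pandas 2.3.3, and NumPy 2.4.6 were used, and the steps were tested on simulated data. Gene lists (61, and 1 added after values were seen) and members were chosen with earlier results of these data known.

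Named genes were the 15 largest and 15 smallest differences, the same among genes at or above the median in both L5 arrays, up to 3 members per list and direction, members stated as within 2-fold, and 8 per direction shared with L2/3. Predicted genes, clone names, chemosensory receptors, small RNAs, and pseudogenes, 69 of the 1064 genes apart, were not named. Not all 160 genes are printed. Alternatives changed the scaling, the filter, and the choice of probe set.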

Additional observations from a re-analysis of the deposited data

Results flagged for a closer look

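Of the 160 genes that the naming rule picked, 21 were at least 2-fold apart in L5 and at least 2-fold apart the opposite way in L2/3. Over all genes apart in L5, 31 of the 439 higher (7.06%) and 74 of the 625 lower (11.8%) were opposite in L2/3. The naming rule drew on gene lists, many of them of receptors and channels. It also took 8 genes per direction because they were apart the same way in L2/3, and these could not be opposite. With 1 array per group and layer, the difference between the layers was not tested.

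Higher in association L5 and lower in association L2/3 were *Fryl* (5.06 in L5 and -1.15 in L2/3), *Ccdc74a* (4.49 and -1.05), *Dennd5b* (4.01 and -1.82), *Zswim7*, a DNA repair gene (3.47 and -2.70), *Ube2d1*, a ubiquitin-conjugating enzyme gene (2.75 and -1.36), *Zfp882* (2.63 and -2.73), and the mitochondrial ribosomal gene *Mrpl34* (1.84 and -1.67). The probe sets of *Fryl* and *Dennd5b* disagreed in L5, as given above.

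Lower in association L5 and higher in association L2/3 were genes of receptors and channels, *Scn3b* (-2.47 and 2.28), *Gabrb1* (-2.40 and 1.70), *Chrm2* (-2.29 and 2.40), *Gabrg3* (-1.56 and 1.10), *Cnih2* (-1.23 and 1.15), and *Kcnk9* (-1.05 and 1.14). For *Chrm2* the bright arrays were callosal L5 (1.91) and association L2/3 (2.17), and the other 3 lay between -0.38 and -0.20. The remaining genes of this kind were *Uxt* (-4.88 and 4.0), the spliceosome gene *Snrpa1* (-3.93 and 1.51), *Cyb5d1* (-3.81 and 1.41), *Sar1a*, a GTPase gene of ER export (-3.09 and 2.47), *Zfp780b* (-1.89 and 2.57), *Dnajb4* (-1.83 and 1.35), *Tet2*, a DNA demethylation gene (-1.82 and 1.61), and *Zfp580* (-1.70 and 2.00).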

How the results depend on the processing

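No paired analysis was possible because each group has 1 array, and for the same reason no replicate could be left out. Over 9 alternatives, 326 to 479 genes were higher and 499 to 642 lower in association L5, and the higher genes were 39.5% to 45.7% of those apart (41.3% in the main setting). The counts of lower GABA receptor, cholesterol synthesis, and ER export genes stayed within 1.5 times. Of 61 list medians, 2 moved by over 1.5-fold. The endothelial and mural median went from 0.58 to -0.02 with no filter on dim genes, and the L4 median from -0.02 to -1.69 with a filter at the 75th percentile, which leaves few L4 genes. Of 160 named genes, 22 moved by over 1.5-fold or changed sign, all through the choice of probe set. Most of the 160 have only 1 probe set and could not move in this way. The 22 are most of the named genes that could. Within 2-fold were 9 of the 160 as the mean of all probe sets, 3 for the probe set chosen over the 2 L5 arrays, and 3 after quantile normalization. Requiring the median in both L5 arrays removed 30, and the 75th percentile filter 5. The difference of *Dnajc13*, a gene of endosome traffic, was 1.95 but -2.24 as the mean of its probe sets and -4.94 for the probe set chosen over the 2 L5 arrays. That choice gave 0.04 for *Mdga2* and -0.03 for *Csmd3*. The mean of all probe sets gave -0.79 for *Ptpn3*, -0.97 for *Sema4d*, 0.55 for *Etv5*, 1.66 for *Fryl*, -1.29 for *Arfgef2*, and 0.53 for *Larp4*. The cause of these moves was not tested. At or below the array median, order between the arrays is limited by the signal over background.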

Other observations

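Genes of protein export from the ER were looked at after their values were seen. Translocation into the ER and COPII coats carry newly made membrane and secreted proteins to the Golgi. Of 65 such genes past the filter, 9 were lower in association L5 (13.8%) and 3 higher (4.62%), beside 5.32% and 3.74% of all kept genes. The median was -0.12. The brightest 25% of genes held 40 of the 65, and there 9.36% were lower and 6.16% higher. *Sar1a* had a signal of 1.44 in association L5 and 4.53 in callosal L5. *Lman1*, a cargo receptor gene that passed the filter through callosal L5 alone, had -0.37 and 2.55. *Serp1*, which encodes a protein that protects unfolded membrane proteins, had 1.09 and 3.79. *Sec61b* and *Ostc*, a translocon gene and an oligosaccharyltransferase gene, went the other way, at 4.90 and 3.24 and at 4.55 and 2.91.

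The counts of other large families are read beside 3.74% higher and 5.32% lower among all kept genes, and 6.16% and 9.36% in the brightest 25%. Of 76 mitochondrial ribosomal protein genes, 6 were higher and 7 lower, from *Mrpl1* (-1.83) to *Mrpl34* (1.84). Of 77 subunit genes of oxidative phosphorylation, 2 were higher, *Ndufs7* (1.62) and *Cyc1* (1.22), and 0 lower, with 72 of the 77 in the brightest 25% of genes. Of 57 cytosolic ribosomal protein genes, 2 were higher, *Rps4l* (1.59) and *Rpl14* (1.11), and 0 lower. Among proteasome genes, *Psmd6* (1.51) and *Psmb2* (1.22) were higher and *Psmc4* (-2.35) and *Psmd11* (-1.32) lower, of 37. Of 66 heat shock and chaperonin genes, 2 were higher and 7 lower (10.6%), with 38 of the 66 in the brightest 25%, led by *Hspb2* (2.04) and *Hspb11* (-2.30). Among 210 zinc-finger genes, 11 were higher and 15 lower, and among 93 splicing and RNA-binding genes 6 were higher, *Elavl3* (2.38) among them, and 7 lower, among them *Cpeb4* (-2.41). The demethylation gene *Tet1* was lower by 2.05, but a second probe set gave -0.03.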
